A study of Homo sapiens with 2 samples.

Results

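Purine and pyrimidine nucleotide metabolism was examined through 44 genes of the pathway, chosen by symbol and joined to the count files by Entrez gene ID. All 44 were found among the 25702 genes of the files under their listed symbols. They fell into 12 genes of de novo purine synthesis, 5 of de novo pyrimidine synthesis, 13 of deoxynucleotide supply and 14 of salvage, nucleotide kinases and nucleotidases. The cells were K562, a human erythroid leukemia line that carries the BCR-ABL1 fusion, grown asynchronously in RPMI medium with serum. The treated culture was kept for 48 h in 1 µM cabozantinib (XL184), a drug that blocks several receptor tyrosine kinases, among them MET and the receptors of VEGF. Its control was kept for 48 h in the solvent DMSO. With 1 library in each group, nothing below is checked by replicates or tested between conditions, and a difference between the conditions and one between these cultures or library preparations cannot be told apart.

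Purine nucleotides are built stepwise on an activated ribose, and the ring receives carbons from folate carriers. Pyrimidine rings are built first and then joined to the ribose. Ribonucleotide reductase turns ribonucleotides into the deoxynucleotides of DNA, thymidylate synthase makes the thymine nucleotide, and salvage enzymes recycle bases and nucleosides. Dividing cells draw on the cytosolic S-phase forms of the deoxynucleotide enzymes, while other forms supply DNA repair and the mitochondrial genome.

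The cabozantinib library held 25505289 counts and the DMSO library 25025243. Levels are given in CPM, counts for each 1000000 counts after TMM scaling of the libraries, and levels of different genes are compared only as CPM per kb of exon. The log2 ratio of a gene is cabozantinib over DMSO, with a 95% counting interval that covers counting error only. A gene was called higher or lower at 1.5-fold or more when that interval excluded no change. All 8 K562 and erythroid markers were measured, at 125 to 12751 CPM, and their summed level was 37178 CPM with cabozantinib and 13283 CPM in DMSO. Markers of other cell types summed to 2.99 CPM with cabozantinib and 10.8 CPM in DMSO for the measured lymphocyte genes, to 8.80 CPM with cabozantinib and 16.7 CPM in DMSO for those of monocytes and granulocytes, and to 3.19 CPM with cabozantinib and 6.29 CPM in DMSO for those of fibroblasts. MS4A1, MPO, ELANE and LUM were not detected, with 0 counts in either library and an upper limit of 3. Of the epithelial markers CDH1 had 1 count in each library, and EPCAM stood at 86.1 CPM with cabozantinib and 70.4 CPM in DMSO. The part of this erythroid difference in the values below was not tested.

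Most of the pathway differed little between the libraries. In such bulk RNA, fewer cells that express a gene and less RNA per cell cannot be told apart. Of the 44 members, all above the 1 CPM that counted as measured, 1 was called higher with cabozantinib, or 0 under scaling by total counts, and 2 were called lower. Over all 12536 measured genes, 8.15% were called higher and 12.3% lower by the same rule, 20.5% in all. For 10488 genes the higher of the CPM values reached 5, and 16.5% of these were called. Their lower value could fall below 5, down to 0.20 CPM, whereas all 44 members reached 5 CPM in both libraries. The 16.5% is therefore not a background matched to the members in level. A smaller size, a log2 ratio of at least 0.32 either way with the interval excluding no change, was also counted. At that smaller size 6 members were higher and 4 lower, while 19.2% of measured genes were higher and 20.5% lower, 39.6% in all. The median log2 ratio was 0.13 over the members and 0.01 over every measured gene. Members took 0.669% of all counts with cabozantinib (exact 95% interval 0.666% to 0.672%) and 0.660% in DMSO (0.657% to 0.663%).

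**Figure D1:**
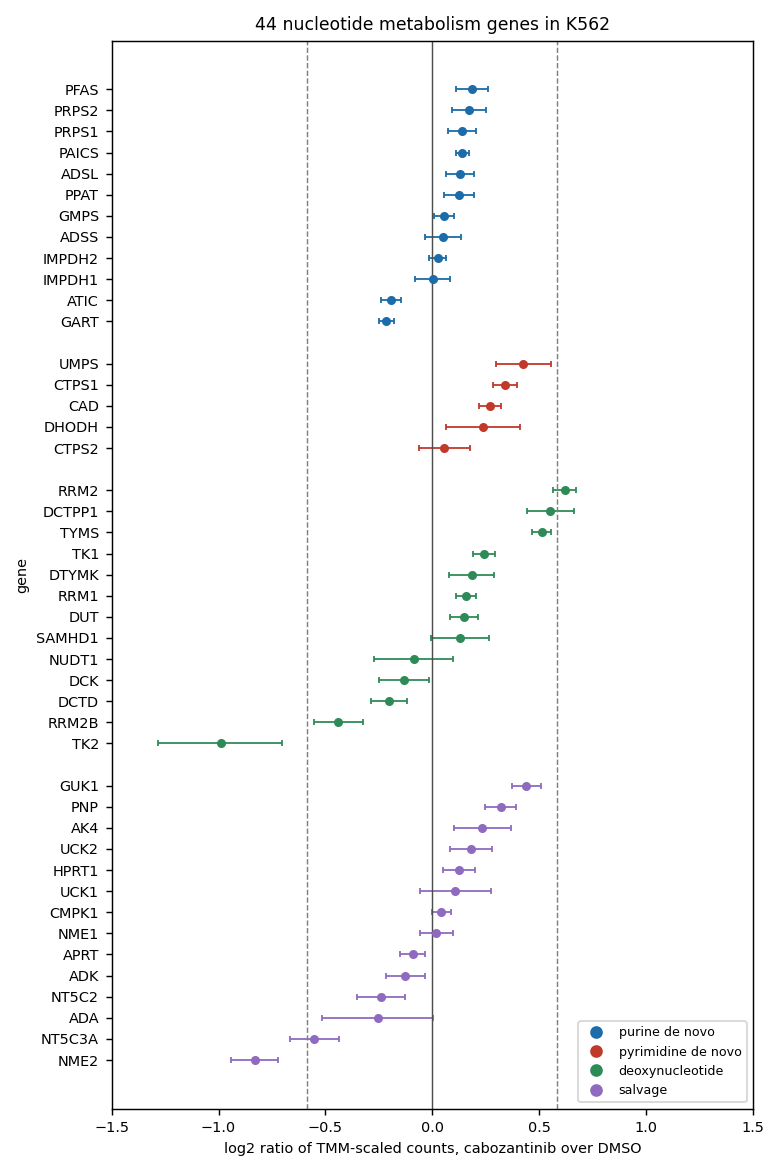
Log2 ratio of TMM-scaled counts, cabozantinib over DMSO, for each of the 44 genes (points, coloured by group), with exact 95% counting intervals (bars) and 1.5-fold marked by dashed lines. RRM2 lies to the right of the upper line, TK2 and NME2 to the left of the lower one, and the de novo purine genes sit between -0.21 and 0.19.

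In the authors' deposited table, 0 of the 44 members reached a posterior probability of differential expression of 0.95, a level that 4.66% of its genes reached. The highest members in the authors' deposited table were TK2 at 0.929 and NME2 at 0.815, with shrunken folds of 0.501 and 0.559. RRM2 had a probability of 0.103 and a shrunken fold of 1.53 in the authors' deposited table. Among the called genes of the other nucleotide, one-carbon and S-phase lists below, SLC29A1, MTHFD2 and ALDH1L2 reached 0.95 in that table. The others did not, among them SLC29A2 at 0.138, AK1 at 0.190 and SLC19A1 at 0.226.

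Deoxynucleotide supply held 2 of the 3 members called at 1.5-fold. RRM2, the cell-cycle-regulated small subunit of ribonucleotide reductase, was higher with cabozantinib, a call that ended under scaling by total counts, whereas TK2, the mitochondrial thymidine kinase, was lower. TYMS and DCTPP1 were higher at the smaller size, and RRM2B, the small subunit that serves cells outside S phase, was lower at that size. Of the 13 genes of this group 1 was called higher and 1 lower at 1.5-fold, and 3 were higher and 2 lower at the smaller size. These shares of 15.4% and 38.5% stood beside 20.5% and 39.6% of all measured genes. The median log2 ratio was 0.15, and the range ran from -0.99 to 0.62.

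The 250 bases before the start sites of 3 of these genes are shown because RRM2 and TYMS were among the highest members of the group and TK2 was the lowest. They are RefSeq sequences on GRCh38.p14, written 5′ to 3′ on the strand of the gene, with capitals marking the searched motifs. The RRM2 window lies at chr2:10122489-10122738 (plus strand), the TYMS window at chr18:657403-657652 (plus strand) and the TK2 window at chr16:66550123-66550372 (minus strand).
RRM2: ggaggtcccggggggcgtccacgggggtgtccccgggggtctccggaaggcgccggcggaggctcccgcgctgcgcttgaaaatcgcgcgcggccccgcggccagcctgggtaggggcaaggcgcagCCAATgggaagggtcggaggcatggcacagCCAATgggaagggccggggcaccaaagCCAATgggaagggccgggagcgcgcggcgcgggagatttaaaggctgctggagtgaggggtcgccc
TYMS: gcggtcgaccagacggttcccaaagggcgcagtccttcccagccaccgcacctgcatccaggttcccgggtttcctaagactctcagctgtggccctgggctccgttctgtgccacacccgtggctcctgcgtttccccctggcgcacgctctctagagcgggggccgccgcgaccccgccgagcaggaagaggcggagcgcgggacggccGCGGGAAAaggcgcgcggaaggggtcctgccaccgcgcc
TK2: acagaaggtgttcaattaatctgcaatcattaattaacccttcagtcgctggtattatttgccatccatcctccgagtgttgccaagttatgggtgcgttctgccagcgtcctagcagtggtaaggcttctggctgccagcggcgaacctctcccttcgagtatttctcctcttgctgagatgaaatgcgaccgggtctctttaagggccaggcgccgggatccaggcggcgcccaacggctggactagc
The motifs searched on both strands were the E-box CACGTG, the E2F forms TTTCGCGC, TTTGGCGC and TTTCCCGC, the NF-Y core CCAAT, and the amino acid response forms TGATGCAA and TGATGAAA. RRM2 held CCAAT 3 times, at 123 to 119, 93 to 89 and 66 to 62 bases before the start, and TYMS held TTTCCCGC on the reverse strand at 39 to 32 bases before it. These letters were not in the TK2 window. DCTPP1, with a log2 ratio above that of TYMS, was not shown. Its window held the E-box alone, and so did that of DCK, at -0.13. In this group CCAAT was also in the windows of RRM1 (0.16), DTYMK (0.18), SAMHD1 (0.13) and NUDT1 (-0.09). The motifs were thus not confined to the higher genes of the group.
Windows were found for 41 of the 44 members. CCAAT was in 31.7% of them and in 34.7% of the 14875 windows of genes chosen by the same rule, and an E2F form in 7.32% and 3.12%. The E-box was in 12.2% of the members' windows and 7.77% of all, and the amino acid response forms in 0 members and 1.16% of all. A match in these windows is a description of the letters, not a site.

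RRM2 (Entrez 6241, hg19 chromosome 2, 10262695 to 10271546, 10 exons) had 6978 counts or 282 CPM with cabozantinib and 4722 counts or 183 CPM in DMSO. It was 1.54-fold higher (1.48 to 1.60), so its interval reached below the 1.5-fold size, and under scaling by total counts its log2 ratio was 0.54, inside that size. Its partner RRM1, the large subunit of the reductase, had 300.0 CPM with cabozantinib and 269 CPM in DMSO, a log2 ratio of 0.16. RRM2B, which replaces RRM2 in the enzyme outside S phase and is known as a p53 target, had 42.6 CPM with cabozantinib and 57.7 CPM in DMSO, a log2 ratio of -0.44 (-0.55 to -0.32). RRM1 and RRM2 thus both had positive log2 ratios, and RRM2B, the alternative small subunit, had a negative one.

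TYMS, thymidylate synthase, had 10537 counts or 425 CPM with cabozantinib and 7690 counts or 298 CPM in DMSO, 1.43-fold higher (1.38 to 1.47). Exons of ENOSF1, TYMSOS and an unnamed gene on the opposite strand overlap 31.5% of its exonic length, and the strand setting of the counting was not given in the sources used here. DTYMK, DUT and DCTD, which also act in thymidylate supply, lay closer to no change. DTYMK, which phosphorylates the thymine nucleotide, had a log2 ratio of 0.18, and DUT, which makes dUMP and keeps uracil out of DNA, one of 0.15. DCTD, the deaminase that feeds the same branch from deoxycytidylate, had 86.7 CPM with cabozantinib and 99.9 CPM in DMSO, a log2 ratio of -0.20.

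DCTPP1, which hydrolyses dCTP and modified forms of it, had 65.1 CPM with cabozantinib and 44.4 CPM in DMSO, 1.47-fold higher (1.36 to 1.58). SAMHD1, which degrades deoxynucleoside triphosphates, had a log2 ratio of 0.13 with an interval of -0.01 to 0.27. NUDT1, which removes oxidised purine nucleotides, had a log2 ratio of -0.09 (-0.27 to 0.10). For SAMHD1 and NUDT1 no difference was detectable at this depth.

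Among the deoxynucleoside kinases, TK2 (Entrez 7084, hg19 chromosome 16, 66541906 to 66584315, 10 exons) had 147 counts or 5.93 CPM with cabozantinib and 304 counts or 11.8 CPM in DMSO. It was 1.98-fold lower (1.63 to 2.44) and the lowest of the 44 members by fold. TK1, the cytosolic thymidine kinase of S phase, had 252 CPM with cabozantinib and 213 CPM in DMSO, a log2 ratio of 0.24. DCK, which phosphorylates deoxycytidine and activates several nucleoside drugs, had a log2 ratio of -0.13.

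In all, 7 pairs of isozymes were compared within each library, a measure in which the scaling of the libraries cancels.
Per kb of exon, RRM2 stood 10.0 times above RRM2B with cabozantinib and 4.81 times above it in DMSO. The ratio was 2.08-fold higher with cabozantinib (exact 95% counting interval 1.91 to 2.28). TK1 stood 136 times above TK2 with cabozantinib and 57.9 times above it in DMSO, a ratio 2.35-fold higher (1.92 to 2.89). In both pairs the form used in S phase was higher relative to the other with cabozantinib.
CTPS1 stood 7.79 times above CTPS2 per kb with cabozantinib and 6.40 times in DMSO, a ratio 1.22-fold higher (1.11 to 1.33). For PRPS1 and PRPS2 the ratio differed by 0.979-fold (0.911 to 1.05), for IMPDH1 and IMPDH2 by 0.984-fold (0.924 to 1.05), and for UCK1 and UCK2 by 0.951-fold (0.831 to 1.09). No shift was detectable in these 3 pairs within those intervals.

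**Figure D2:**
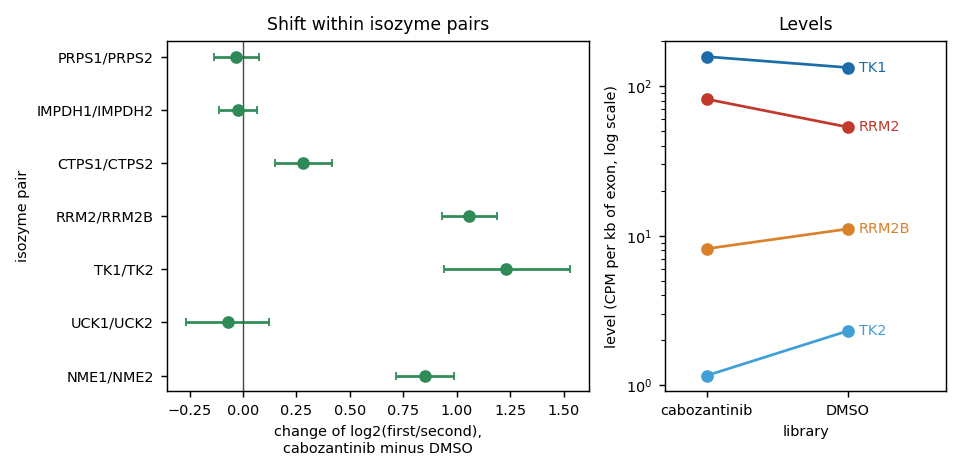
Left, change of the log2 ratio of the first to the second gene of 7 isozyme pairs, cabozantinib minus DMSO (points), with exact 95% counting intervals (bars). Right, levels in CPM per kb of exon (log axis) of 4 of these genes in the cabozantinib and DMSO libraries. RRM2/RRM2B and TK1/TK2 shift by 1.06 and 1.23, and the lines of RRM2 and TK1 slope opposite to those of RRM2B and TK2.

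The S-phase list was read beside this group. Of its 18 genes 3 were called higher at 1.5-fold and 0 lower, and 9 were higher and 0 lower at the smaller size, beside 8.15% and 19.2% of all measured genes higher. Its median log2 ratio was 0.30. PCNA, the sliding clamp of DNA polymerases, was 1.68-fold higher, the helicase subunit gene MCM4 1.64-fold and GINS1 1.69-fold. In the authors' deposited table the probabilities of differential expression were 0.388 for PCNA, 0.234 for MCM4 and 0.518 for GINS1, all below 0.95. CDT1, which loads the helicase in G1, was the list's only member with a negative log2 ratio, at -0.13. The part of the S-phase genes in the values of RRM2, TYMS and TK1 was not tested.

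De novo pyrimidine synthesis was the group with the highest median log2 ratio, at 0.27, and all 5 of its genes had a positive one, of which CTPS2 turned negative under scaling by total counts. No gene of the 5 was called at 1.5-fold, beside 20.5% of all measured genes. At the smaller size 2 were higher and 0 lower, or 40% called, beside 39.6% of all measured genes, 19.2% higher and 20.5% lower. UMPS, which makes UMP in the last steps of the route, had 1105 counts or 44.6 CPM with cabozantinib and 855 counts or 33.2 CPM in DMSO, 1.34-fold higher (1.23 to 1.47). CTPS1, the CTP synthetase of proliferating cells, had 233 CPM with cabozantinib and 184 CPM in DMSO, 1.27-fold higher (1.22 to 1.32). Both lay outside their counting error and inside the 1.5-fold size.
CAD, the large protein that carries the first steps of the route, had 267 CPM with cabozantinib and 221 CPM in DMSO, a log2 ratio of 0.27. DHODH, the mitochondrial enzyme of the middle step, had 23.7 CPM with cabozantinib and 20.1 CPM in DMSO, a log2 ratio of 0.24 (0.06 to 0.41). CTPS2, the second CTP synthetase, had 1125 counts in each library, a log2 ratio of 0.06 (-0.06 to 0.18). By summed level, the group stood at 614 CPM with cabozantinib and 502 CPM in DMSO.

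De novo purine synthesis was the steadiest group. None of its 12 genes was called at 1.5-fold or at the smaller size, beside 20.5% and 39.6% of all measured genes. Log2 ratios ran from -0.21 to 0.19 with a median of 0.09, which became 0.01 when libraries were scaled by total counts. Summed over the group the level was 3125 CPM with cabozantinib and 3089 CPM in DMSO. Levels per kb were highest for IMPDH2, which makes XMP on the way to GMP, at 252 CPM per kb with cabozantinib and 247 in DMSO, and lowest for PFAS, which acts in the middle of the ring's assembly, at 22.8 with cabozantinib and 20.0 in DMSO.

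PRPS1 and PRPS2, which make the activated ribose PRPP, had log2 ratios of 0.14 and 0.17. PPAT, the enzyme of the committed step, had 138 CPM with cabozantinib and 127 CPM in DMSO, a log2 ratio of 0.13. PAICS, which carries a pair of later steps, had 748 CPM with cabozantinib and 679 CPM in DMSO, a log2 ratio of 0.14. PPAT and PAICS lie head to head on hg19 chromosome 4, with starts at 57301845 on the minus strand and 57301915 on the plus strand, 70 bases apart, and the counting intervals of their log2 ratios overlapped. PFAS had a log2 ratio of 0.19 and ADSL, which acts in ring assembly and again in AMP synthesis, one of 0.13.

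GART and ATIC, the enzymes that take formyl groups from folate to build the ring, alone had a negative log2 ratio in the purine group under TMM scaling. GART had 507 CPM with cabozantinib and 588 CPM in DMSO, a log2 ratio of -0.21 (-0.25 to -0.18). ATIC had 273 CPM with cabozantinib and 312 CPM in DMSO, a log2 ratio of -0.20 (-0.24 to -0.15). Both intervals excluded no change, and both differences were below the smaller size.
At the branch to GMP, IMPDH1 had a log2 ratio of 0.00 (-0.08 to 0.08), IMPDH2 one of 0.03 and GMPS one of 0.05. At the branch to AMP, ADSS had 0.05 (-0.03 to 0.13). The directions of IMPDH1, IMPDH2, GMPS and ADSS turned negative under scaling by total counts. That of IMPDH1 also did so under the DESeq2 and upper quartile scalings. No direction is therefore given for these genes.

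**Figure D3:**
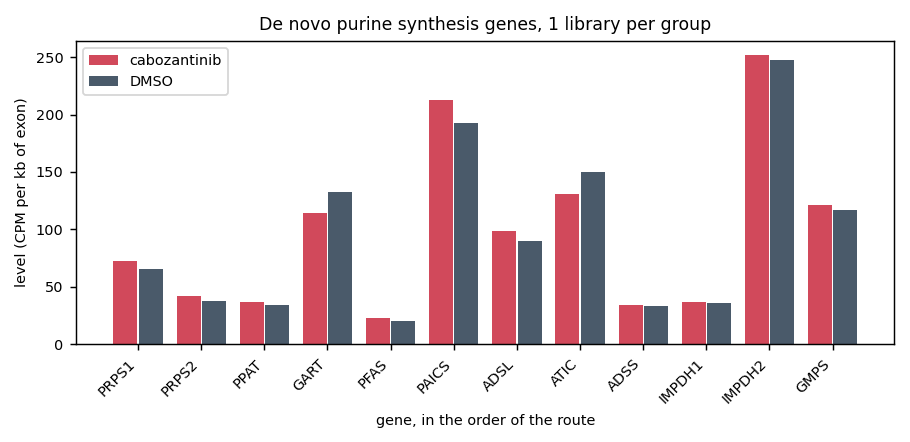
Levels of the 12 de novo purine genes in CPM per kb of exon, in the order of the route, with cabozantinib (left bar of each pair) and in DMSO (right bar), 1 library each. GART and ATIC are lower with cabozantinib, and IMPDH2 has the highest bars, at 252 with cabozantinib and 247 in DMSO.

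One-carbon genes, which supply the formyl and methylene groups used by GART, ATIC and TYMS, differed more than the purine enzymes themselves. Of 11 listed genes 1 was called higher and 3 lower at 1.5-fold, 36.4% of the list. Over all measured genes 8.15% were called higher and 12.3% lower, 20.5% in all. MTHFD2, the mitochondrial dehydrogenase of folate, had 311 CPM with cabozantinib and 710 CPM in DMSO, 2.29-fold lower (2.23 to 2.35). ALDH1L2, which oxidises formyl-folate in mitochondria, was 2.90-fold lower and SHMT2, the mitochondrial serine hydroxymethyltransferase, 1.85-fold lower. The cytosolic MTHFD1, which makes the formyl donor of purine synthesis, had a log2 ratio of 0.25, and SHMT1 one of -0.02. The folate importer SLC19A1 was 1.58-fold higher (1.46 to 1.71), which became a log2 ratio of 0.58, just inside 1.5-fold, under scaling by total counts.

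In the salvage group 0 of 14 genes were called higher and 1 lower, and the median log2 ratio was 0.03. At the smaller size 1 was higher, GUK1, and 2 were lower, NME2 and NT5C3A. The called shares were 7.14% at 1.5-fold and 21.4% at the smaller size, beside 20.5% and 39.6% of all measured genes.
The base salvage enzymes stood close to no change. HPRT1, which rebuilds IMP and GMP from their bases, had 120 CPM with cabozantinib and 110 CPM in DMSO, a log2 ratio of 0.12. APRT, which does so for adenine, had 182 CPM with cabozantinib and 194 CPM in DMSO, a log2 ratio of -0.09.
PNP, which splits purine nucleosides, had 139 CPM with cabozantinib and 111 CPM in DMSO, a log2 ratio of 0.32 (0.25 to 0.39), just short of the smaller size. ADA, adenosine deaminase, had 223 counts with cabozantinib and 277 in DMSO, a log2 ratio of -0.26 whose interval of -0.52 to 0.00 reached no change. ADK, adenosine kinase, had a log2 ratio of -0.13. The uridine-cytidine kinase genes UCK1 and UCK2 had 0.11 and 0.18.

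GUK1, guanylate kinase, had 3874 counts or 156 CPM with cabozantinib and 2970 counts or 115 CPM in DMSO, 1.36-fold higher (1.29 to 1.42). CMPK1, which phosphorylates UMP and CMP, had 322 CPM with cabozantinib and 313 CPM in DMSO, a log2 ratio of 0.04. AK4, a mitochondrial adenylate kinase, had 0.23.
NME2 (Entrez 4831, hg19 chromosome 17, 49242891 to 49249105) encodes a nucleoside diphosphate kinase. It had 1046 counts or 42.2 CPM with cabozantinib and 1936 counts or 75.1 CPM in DMSO, 1.78-fold lower (1.65 to 1.92). Its neighbour and close copy NME1 had 2573 counts with cabozantinib and 2641 in DMSO, a log2 ratio of 0.02 that turned negative under scaling by total counts. NME1 over NME2 was 1.80-fold higher with cabozantinib (1.64 to 1.98).
The value of NME2 is uncertain, since the genes share sequence and exons of the read-through gene NME1-NME2 overlap 43.6% of NME1 and 53.6% of NME2. That read-through gene had 18 counts with cabozantinib and 8 in DMSO.
Both nucleotidases were on the lower side. NT5C3A, which dephosphorylates pyrimidine nucleotides and whose loss causes a hemolytic anemia, had 1034 counts or 41.7 CPM with cabozantinib and 1577 counts or 61.2 CPM in DMSO. It was 1.47-fold lower (1.35 to 1.59), and passed 1.5-fold when libraries were scaled by total counts. NT5C2, which acts on purine nucleotides, had 46.1 CPM with cabozantinib and 54.4 CPM in DMSO, a log2 ratio of -0.24.

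Another 63 genes of nucleotide metabolism were listed around the members, of which 62 were in the files and 43 were measured. Of these, 3 were called higher and 5 lower at 1.5-fold, with a median log2 ratio of -0.08. The called share was 18.6%, beside 20.5% of all measured genes.
Nucleoside transporters held 2 of the 3 higher genes, and of the 3 SLC29A1 alone was still called when libraries were scaled by total counts. SLC29A1, which encodes the equilibrative nucleoside transporter ENT1, had 6661 counts or 269 CPM with cabozantinib and 3488 counts or 135 CPM in DMSO, 1.99-fold higher (1.91 to 2.07). SLC29A2, which encodes ENT2, had 132 CPM with cabozantinib and 85.7 CPM in DMSO, 1.54-fold higher (1.46 to 1.63), which became a log2 ratio of 0.54, inside 1.5-fold, under that scaling. SLC43A3, a purine base transporter, had a log2 ratio of 0.50, inside 1.5-fold. By contrast the lysosomal relative SLC29A3 had a log2 ratio of -0.54, and SLC29A4 was 1.60-fold lower (1.14 to 2.29) on 55 counts with cabozantinib and 92 in DMSO.
AK1, the cytosolic adenylate kinase of muscle and red cells, had 42.3 CPM with cabozantinib and 27.2 CPM in DMSO, 1.56-fold higher (1.41 to 1.72), which became a log2 ratio of 0.55, inside 1.5-fold, under scaling by total counts. AK7, a kinase of cilia, was called lower on 32 counts with cabozantinib and 67 in DMSO.

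Among genes of breakdown and pool cleansing, NUDT18, which hydrolyses oxidised nucleoside diphosphates, was 2.07-fold lower (1.60 to 2.72) and ENTPD5, a diphosphatase of the endoplasmic reticulum, 1.51-fold lower (1.30 to 1.76). UPP1, uridine phosphorylase, had 14 counts or 0.565 CPM with cabozantinib and 47 counts or 1.82 CPM in DMSO, 3.15-fold lower (1.75 to 6.35). It passed the 1 CPM filter through the DMSO library alone, where it was higher, so its call is a description and not support for a difference. None of the 10 measured genes of purine interconversion and breakdown was called, with log2 ratios from -0.31 for GMPR2 to 0.24 for GDA. GMPR, the GMP reductase, had 76.6 CPM with cabozantinib and 66.0 CPM in DMSO. MTAP, which salvages adenine from methylthioadenosine and lies on hg19 chromosome 9 at 21802635 to 21865970, had 0 counts in either library, with an upper limit of 3. XDH, which makes uric acid, CDA, cytidine deaminase, and SLC28A1 each had 0 counts with cabozantinib and 1 in DMSO.

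**Figure D4:**
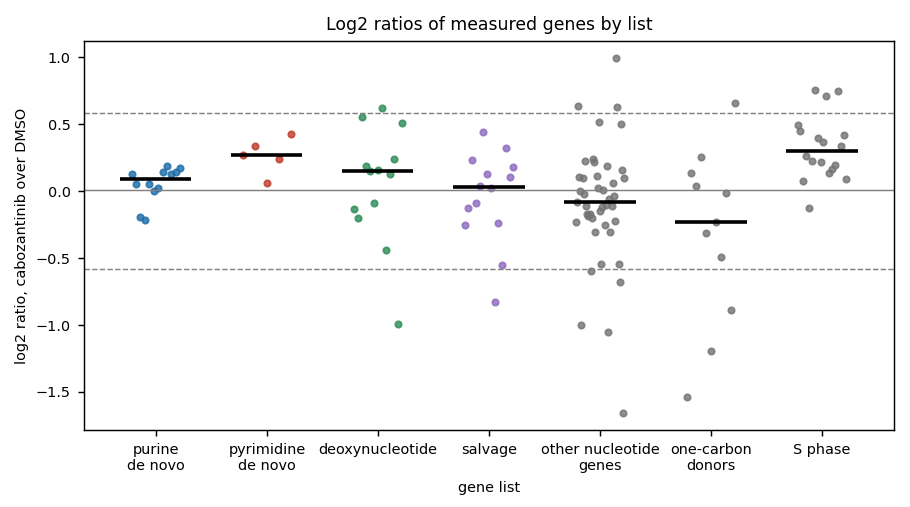
Log2 ratio, cabozantinib over DMSO, of each measured gene (points) in the 4 groups, the other nucleotide genes, the one-carbon donors and the S-phase list, with list medians as black bars, the median of all measured genes as a grey line and 1.5-fold as dashed lines. Purine genes lie between -0.21 and 0.19, and the one-carbon genes spread from -1.54 to 0.66.

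Set side by side, the median log2 ratios were 0.27 for pyrimidine synthesis, 0.15 for deoxynucleotide supply, 0.09 for purine synthesis and 0.03 for salvage. The ranges of the 4 groups overlapped. The median distance from no change, whatever the direction, was 0.13 in the purine group and 0.27 in the pyrimidine group. It was 0.20 in the deoxynucleotide group and 0.21 in the salvage group. Over all measured genes it was 0.28, and over genes whose higher CPM value reached 5 it was 0.25, below the pyrimidine group. Neither of these sets of genes is matched to the members in level.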

How the data were processed

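RNA of 1 cabozantinib and 1 DMSO culture was sequenced from strand-specific TruSeq libraries, per the labels' protocols. The counts deposited for each library are whole numbers for each Entrez gene. Reads were aligned with Rsubread to hg19, per the file headers, in the layout of featureCounts. The version, strand setting and handling of multi-mapping reads were not given in the sources used here. The authors' deposited table holds posterior probabilities, a score between 0 and 1, and fold ratios, in the layout of EBSeq. The direction of the folds was read from the labelled libraries. Another 4 columns of that table, values without a sample label, were not used.

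TMM scaling used edgeR 4.0.16 (R 4.3.3), with factors of 0.971 for cabozantinib and 1.03 for DMSO. Log2 ratios used a pseudocount of 0.5, and a gene counted as measured if either library reached 1 CPM. Intervals are exact (Clopper-Pearson for 2 counts, conditional for isozyme pairs) at 95%, computed with scipy 1.17.1 in Python 3.11.15. With 1 library in each group, the intervals cover counting error only. Reads carry no molecular identifiers, so repeated reads of 1 molecule were not told apart and the intervals may be too narrow. The rule for named genes covered all 44 members, and in the other lists those called and the highest and lowest. Further genes of those lists appear as examples, chosen after their values were seen. Members, lists and thresholds were chosen with earlier results of these data known. Alternatives covered scaling (total counts, DESeq2 1.42.0, upper quartile), filter, pseudocount, threshold, deposited fold and overlapping genes. Promoter windows were taken at the RefSeq start nearest to the 5′ end of the GENCODE principal transcript. Scripts were tested on simulated data. Some related genes are not reported here.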

Additional observations from a re-analysis of the deposited data

How the results depend on the processing

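Scaling by total counts, which moved the median over every measured gene to -0.07, left 0 members called higher (RRM2 at 0.54) and 1 other nucleotide gene higher (SLC29A1, with AK1 at 0.55 and SLC29A2 at 0.54). It gave medians of 0.0061 for purine, 0.188 for pyrimidine and 0.065 for deoxynucleotide genes, and turned the log2 ratios of 7 members negative, none of which was above 0.06. NT5C3A became -0.64, past 1.5-fold. Of the 7 that turned negative, IMPDH1 also did so under the DESeq2 and upper quartile scalings. At a log2 size of 0.32, 6 members were higher and 4 lower, with 5 other genes higher. At 2-fold 0 members were higher and 0 lower, with 0 other genes higher and 2 lower. A filter of 5 CPM in either library left 2 other genes lower. Of these, NUDT18 passed it through the DMSO library alone, at 3.47 CPM with cabozantinib and 7.22 CPM in DMSO. Leaving out overlapping genes left 1 member lower, TK2. As the ratio of summed CPM the purine group gave 0.017 and the deoxynucleotide group 0.27. Under the DESeq2 and upper quartile scalings, no filter, both pseudocounts, the deposited fold and the size alone, the counts of called genes were unchanged. Where medians were computed, each stayed between the median lower and the median upper bound of its genes' counting intervals. For the members, dropping the filter could change nothing, since all had passed it. The pseudocounts were small beside their counts, which were 147 or more. The unscaled log2 count ratio minus the deposited log2 fold ran only from -0.054 to -0.043, so that fold is not a separate check. The isozyme shifts held with both pseudocounts, an outcome fixed in advance by the size of the counts and so no support for them. No paired analysis was possible because each group holds 1 library, and for the same reason no replicate could be left out. Depth limits genes such as ADA, NUDT1 and SAMHD1, whose intervals include no change.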

Other observations

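Genes that supply the mitochondrial pool of nucleotides were grouped after their values were seen, so the grouping supports nothing and is given as values. Besides TK2 and RRM2B, the mitochondrial deoxyguanosine kinase DGUOK had 75.6 CPM with cabozantinib and 85.0 CPM in DMSO, a log2 ratio of -0.17. The mitochondrial deoxynucleotidase NT5M had -0.25, the mitochondrial kinase CMPK2 -0.11, and the pyrimidine nucleotide carriers SLC25A36 and SLC25A33 had -0.22 and -0.03. NME4, the mitochondrial nucleoside diphosphate kinase, went the other way, with 166 CPM with cabozantinib and 116 CPM in DMSO, a log2 ratio of 0.51.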
